A study of Mus musculus with 6 samples.

Results

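The genes described here encode the proteins of the cytosolic ribosome. They are the protein-coding genes whose symbol is Rpl or Rps with a number and an optional a, x, l or y, together with Rplp0, Rplp1, Rplp2 and Rpsa. Kinases of the Rps6k family and predicted genes were left out. The rule found 81 of the 17558 genes in the deposited table, 50 of the large subunit and 31 of the small subunit. Rpl10l also meets it and was not analysed here.

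RNA was sequenced from C2C12 cells, an immortalized mouse myoblast line that leaves the cell cycle and fuses into myotubes when serum is lowered. The design addresses the part played by Pkm1 and Pkm2, which are spliced from 1 pyruvate kinase gene (Pkm), in this change. All 6 libraries came from cells harvested after 48 h in differentiation medium (low horse serum with insulin, transferrin and selenium). The shScr cells stably carried a non-targeting scrambled hairpin, the shPkm1 cells a hairpin against Pkm1 and the shPkm2 cells a hairpin against Pkm2, with 2 libraries per group. The labels do not say whether the 2 libraries of a group came from separate cultures or how many clones a stable line held. P-values therefore measure the spread between these libraries only, which may be technical.

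Each cytosolic ribosome carries 1 copy of most of these proteins, so cells make the proteins in near-equal amounts while they grow. Their mRNAs begin with a C followed by an unbroken stretch of pyrimidines, called a 5' TOP, through which the kinase mTOR and the RNA-binding protein Larp1 set their translation and stability. In muscle, ribosome number is tied to fibre growth, and a heart and skeletal muscle paralogue, Rpl3l, replaces Rpl3 in mature fibres. Many of these genes also have processed pseudogenes of nearly the same sequence. The placing of shared reads by the authors' counting can affect their counts, which was not tested.

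The start-site sequences of 6 members are printed because the pyrimidine run is the feature that the group is known for, and because these 6 members cover both large and small changes in the Pkm hairpin groups. Each line gives 50 bases from RefSeq (GRCm38.p6), 30 before the annotated start and 20 from it on. Capitals mark the longest unbroken run of C and T that reaches within 5 bases of the start on the gene's strand.
Rps27, chr3:90213629-90213678, minus strand: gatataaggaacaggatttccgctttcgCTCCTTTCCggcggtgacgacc
Rpl35, chr2:39005112-39005161, minus strand: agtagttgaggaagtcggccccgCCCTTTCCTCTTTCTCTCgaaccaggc
Rpl7a, chr2:26910777-26910826, plus strand: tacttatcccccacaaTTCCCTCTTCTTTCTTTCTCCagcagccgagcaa
Rpl41, chr10:128549149-128549198, minus strand: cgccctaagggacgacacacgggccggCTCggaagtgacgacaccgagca
Rplp0, chr5:115559437-115559486, plus strand: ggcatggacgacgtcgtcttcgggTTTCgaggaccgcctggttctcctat
Rps2, chr17:24720033-24720082, plus strand: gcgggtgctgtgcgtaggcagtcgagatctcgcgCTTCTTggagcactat
Of the 61 members with an entry, 24 (39.34%) had a run of at least 8 bases, against 11.35% of 27025 genes with an entry of the same length. The search read the gene's strand only and took the longest run over a gene's listed starts. Rps27, Rpl35 and Rpl7a had runs of 9, 18 and 21 bases, while Rpl41 and Rplp0 had 3 and 4. An annotated start can lie some bases from the one used in these cells, so a short run says only that these letters are not at this position. The starts used for Rpl7a and Rps2 lie inside the listed gene spans, which begin at chr2:26910685 and chr17:24718121. Whether the marked runs of these genes stand at the start of their mRNAs was not tested.

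The libraries held between 18216896 and 19796036 estimated counts. Pkm itself was lower in shPkm1, the log2 fold change from shScr being -0.63 (SE 0.133, edgeR adjusted p 0.00107), and was not lower in the shPkm2-labelled libraries (0.20, adjusted p 0.198). The Pkm2 isoform had 1073 and 1517 TPM in shScr and 2699.7 and 2629.5 TPM in the shPkm2-labelled libraries. The Pkm1 isoform had 546 and 589 TPM in shScr, 243 and 218 in shPkm1, and 254.1 and 254.2 in the shPkm2-labelled libraries. So in the shPkm2-labelled libraries the other isoform was the one below the controls, and every direction given for that group is that of libraries whose targeted isoform was not lower. Muscle markers differed between the groups at the same time: the summed TPM of 9 myoblast and myotube markers was 24566 and 19008 in shScr, 10109 and 10973 in shPkm1, and 1417 and 1324 in the shPkm2-labelled libraries. Acta1 held 15317 and 10686 TPM of the control sums. Of the 9, 8 were lower in shPkm1, and in the shPkm2-labelled libraries 8 were lower while Myf5, a myoblast factor, was higher (1.74, adjusted p 9.39e-09). The 3 proliferation markers Mki67, Top2a and Ccnb1 summed to 42.3 and 56.1, then 138.5 and 136, then 426 and 366 TPM in the same order. The 3 fibroblast markers Col1a1, Pdgfra and Dcn summed to 373 and 385 TPM in shScr, 2640.3 and 2599 in shPkm1, and 70.4 and 63.9 in those labelled shPkm2. Col1a1 made up most of this sum, and Pdgfra was higher in both Pkm hairpin groups, at 1.02 and 1.61 TPM in shScr, 8.44 and 8.34 in shPkm1, and 10.2 and 9.47 in those labelled shPkm2. Markers of endothelium, adipocytes and epithelium summed to at most 1.06 TPM in any library, and Cd68, the leukocyte marker in the table, to at most 3.62 TPM. The part of these differences in the results on ribosomal proteins was not tested.

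Ribosomal protein mRNAs were among the most abundant in the cells. On the TPM scale, which is per length and can be compared between genes, the 81 members took 20.5% and 19.5% of all transcripts in shScr, 16.8% and 17.9% in shPkm1, and 19.3% and 20.1% in the shPkm2-labelled libraries. The shPkm1 libraries lay below both controls, and the shPkm2-labelled libraries overlapped with them. With 2 libraries in each group the smallest p of a permutation test is 0.33, so these shares were not tested. In bulk RNA, fewer cells of a kind and less RNA per cell cannot be told apart.

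Levels spread widely around a median member of 1896 and 1901 TPM in shScr, 1786 and 1899 in shPkm1, and 1948 and 2051 in those labelled shPkm2. On this scale the shPkm2-labelled libraries lay above both controls. Rpl41, which encodes a very short basic protein at the surface of the large subunit, had the highest level in shScr, with 14369 and 11996 TPM in shScr, 7634 and 8197 in shPkm1, and 10398 and 12095 in those labelled shPkm2. It stayed above every other member in shScr and in the shPkm2-labelled libraries, while Rps2, of the mRNA entry side of the small subunit, had a mean of 8644 TPM against 7916 for Rpl41 in shPkm1. Among tested members Rpl29 was lowest, at a mean of 19.0 TPM in shScr, and Rps6, Rps15a, Rps27l and Rpl22 followed with 39.5, 62.4, 218 and 306 TPM. Rps15a was counted on 1 transcript with an effective length of 5078 bases, the longest of the tested members. The part of reads shared with pseudogenes in these low levels was not tested. Summed per subunit, the small subunit had 0.684 and 0.677 times the TPM of the large subunit in shScr, 0.708 and 0.689 in shPkm1, and 0.669 and 0.672 in the shPkm2-labelled libraries.

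Low counts removed 3 members from the tests. Rpl39l, a paralogue known from germ cells, was listed at 0 in all libraries, and Rpl32l had at most 3 counts in any library. Rpl3l had 23 and 2 estimated counts in shScr, 0 and 1 in shPkm1, and 0 and 1 in the shPkm2-labelled libraries. Its control level rested on 1 library, so no difference between groups was established. Rpl3, the paralogue in use in these cells, had 1755 and 1892 TPM in shScr, 2129.6 and 2183 in shPkm1, and 2331 and 2302 in those labelled shPkm2. The 78 other members passed the filter, 47 of the large and 31 of the small subunit, and they are the ones counted below.

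**Figure D1:**
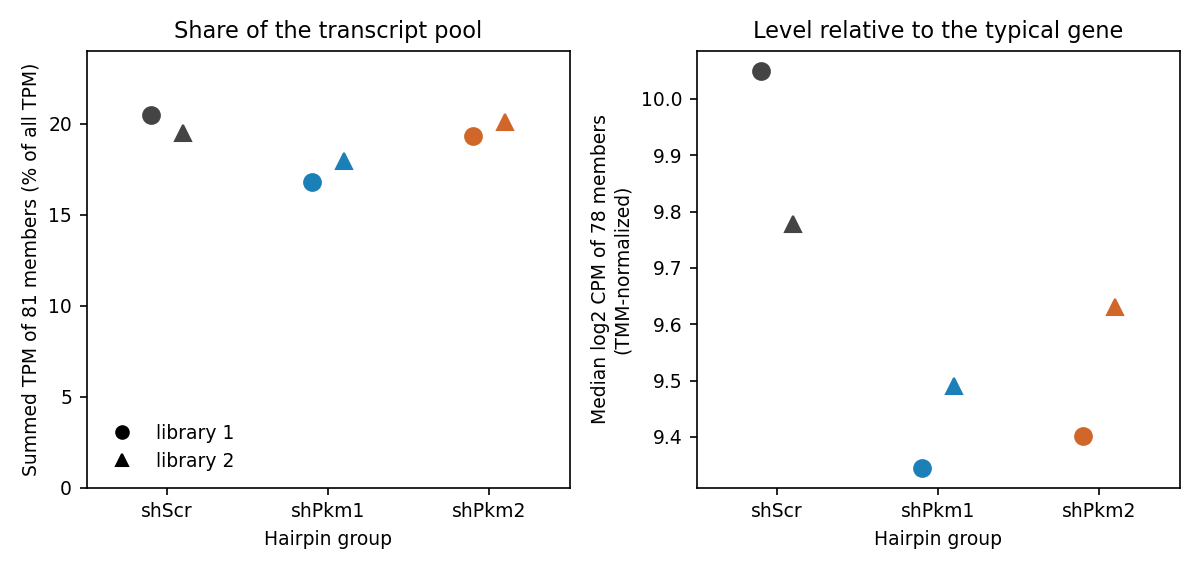
Left, summed TPM of the 81 ribosomal protein genes as a percent of all TPM in each library; right, median log2 CPM of the 78 tested members after TMM scaling (a trimmed mean of log ratios) (the right axis does not start at 0). Circles are library 1 and triangles library 2 of a group: on the left the shPkm2-labelled libraries (19.3% and 20.1%) overlap with shScr (20.5% and 19.5%), while on the right both Pkm hairpin groups lie below both controls.

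The choice of scale matters for the whole group. TMM, the trimmed mean of M values, was used to scale CPM and sets the typical gene of each library equal. On that scale the median member stood at 10.05 and 9.78 log2 CPM in shScr, 9.35 and 9.49 in shPkm1, and 9.40 and 9.63 in the shPkm2-labelled libraries, with no overlap between controls and either Pkm hairpin group. With library totals alone the median of all 12643 tested genes itself shifted by 0.19, 0.33 and 0.13 on the log2 scale in the 3 comparisons (shPkm1 against shScr, shPkm2 against shScr, shPkm2 against shPkm1). The changes given below are relative to the typical gene. Members also moved together between libraries of 1 group: 73 of 78 were higher in shScr library 1 than in library 2, by a median of 0.24 on the log2 scale against 0.02 for all genes. In shPkm1 72 and in the shPkm2-labelled libraries 71 were higher in library 2, with median differences (library 1 minus library 2) of -0.13 in each.

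Most ribosomal protein mRNAs were lower in shPkm1 than in shScr. In the edgeR quasi-likelihood test with Benjamini-Hochberg adjustment over all genes, 62 of 78 members (79.5%) were lower and 0 were higher, where 31.4% of all tested genes were lower and 31.8% higher. At an unadjusted p under 0.05 edgeR had 63 lower and 0 higher, and DESeq2 called 1, Rpl7, higher. The median log2 fold change of the members was -0.55, against 0.00 for all genes. In the large subunit 37 of 47 members were lower (median -0.55), and in the small subunit 25 of 31 (median -0.50). A fall of at least 2-fold was reached by 9 members. Such falls made up 9.41% of all genes.

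Rps27, a zinc-finger protein of the small subunit, fell most. It had 898 and 883 CPM in shScr, 389 and 382 in shPkm1, and 335 and 399 in those labelled shPkm2 (CPM after TMM scaling here and below). Both libraries of each Pkm hairpin group lay below both controls, and the log2 fold change in shPkm1 was -1.21 (adjusted p 1.32e-06, SE 0.115). Rps27a, made as a fusion with ubiquitin, had 694 and 725 CPM in shScr, 299.8 and 339.9 in shPkm1, and 355 and 385 in those labelled shPkm2, and fell by 1.15 on the log2 scale (SE 0.111, adjusted p 1.47e-06).

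Rpl41 had 4257 and 3069 CPM in shScr, 1582 and 1761 in shPkm1, and 2016 and 2514 in those labelled shPkm2, with no overlap between the controls and shPkm1 although the controls themselves differed, and its log2 fold change was -1.13 (adjusted p 7.2e-05, SE 0.169). Rpl35a, mutated in some families with Diamond-Blackfan anaemia, had 449.5 and 412 CPM in shScr, 197 and 214 in shPkm1, and 223 and 261 in those labelled shPkm2, and a log2 fold change of -1.07 (adjusted p 3.22e-06, SE 0.112). Rps12 of the small subunit head had 1774 and 1501 CPM in shScr, 755 and 823 in shPkm1, and 1095 and 1155 in those labelled shPkm2. Its 2 shPkm1 libraries were the lowest of all 6, and its log2 fold change was -1.05 (adjusted p 9.77e-06, SE 0.125). Rps27l, the paralogue of Rps27 and a known p53 target, had 71.5 and 70.9 CPM in shScr, 36.1 and 32.6 in shPkm1, and 42.8 and 53.3 in those labelled shPkm2, and changed by -1.05 (adjusted p 5.88e-06, SE 0.118). Without shPkm1 library 1 the number of members lower dropped from 62 to 36 (all genes 22.3%), and these 6 kept their calls without any 1 library. With library totals alone 42 were lower (all genes 21.0%) and 1, Rpl7, was higher (all genes 40.5%).

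**Figure D2:**
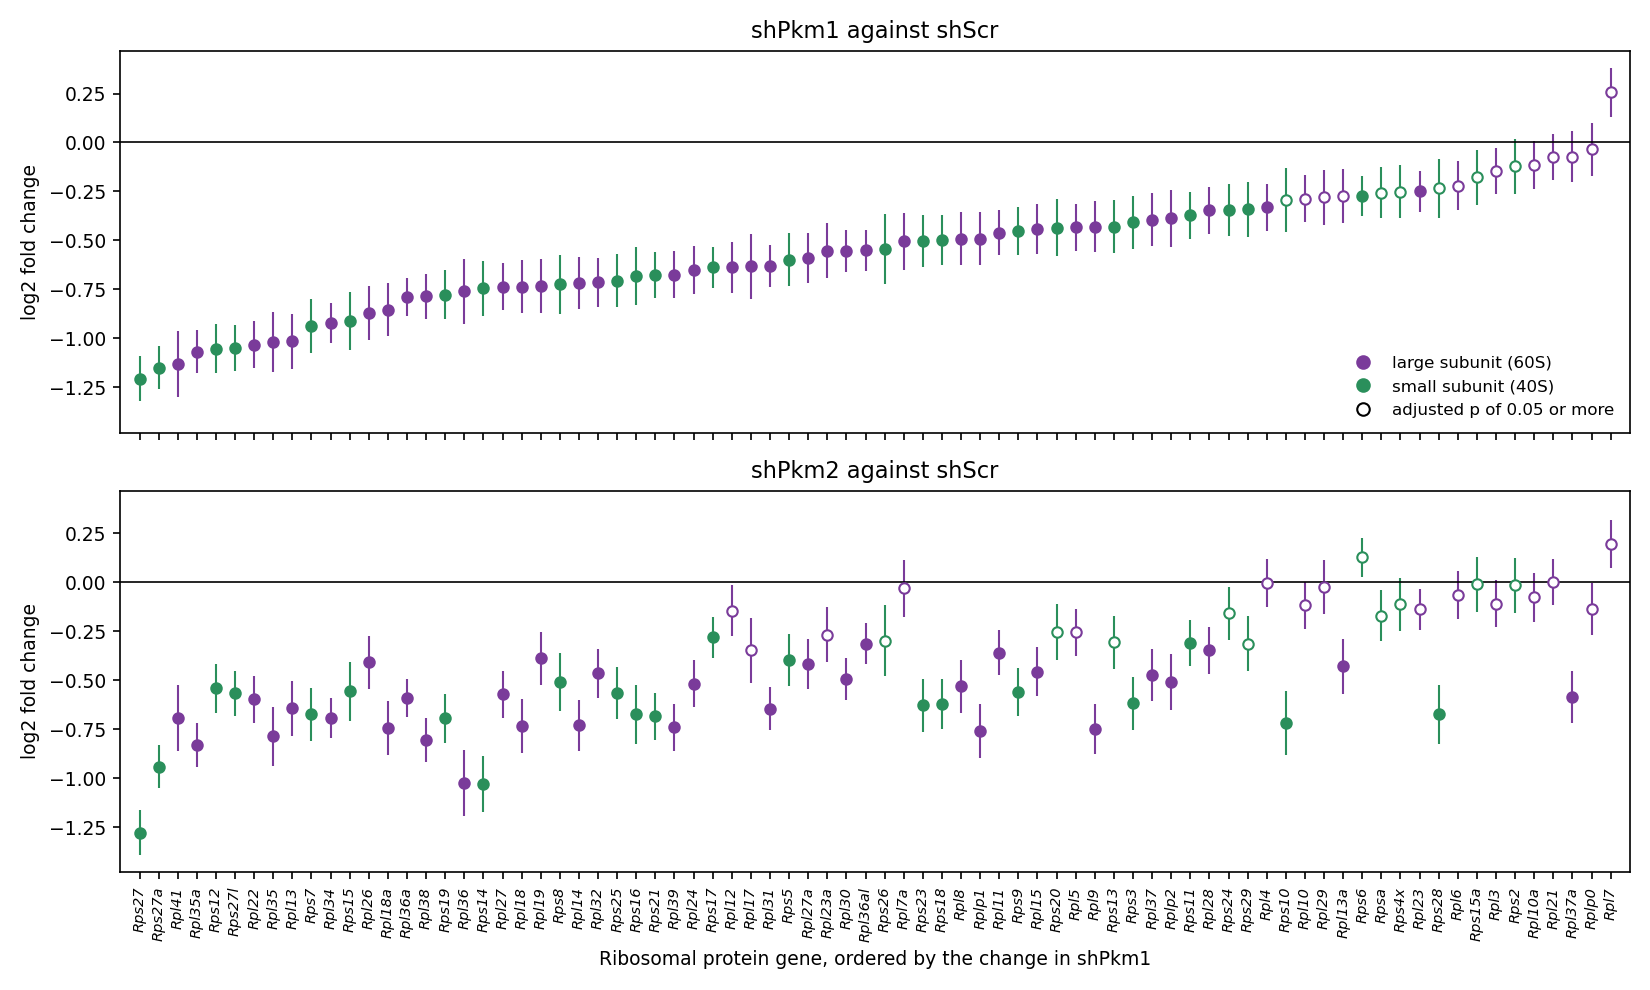
Log2 fold change (vertical axis, bars show the standard error of the fit) of each tested ribosomal protein gene, ordered from left to right by its change in shPkm1. In shPkm1, 77 of 78 members lie below 0 and in the shPkm2-labelled libraries 75 do; Rpl7 lies above 0 in both, and with library totals alone 8 and 27 members lie above 0.

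In the shPkm2-labelled libraries, 53 of 78 members (67.9%) were lower than in shScr and 0 were higher, where 34.2% of all genes were lower and 33.9% higher. Unadjusted, 55 were lower and 0 higher, and DESeq2 called 0 higher. The median log2 fold change was -0.50, against 0.01 for all genes, and 3 members fell at least 2-fold (13.7% of all genes did). The large subunit had 32 of 47 members lower (median -0.47) and the small subunit 21 of 31 (median -0.56). Rps27 again fell most, by 1.28 on the log2 scale (SE 0.115, adjusted p 4.65e-07). Rps14, which binds the platform of the small subunit, had 1648 and 1413 CPM in shScr, 817 and 1009.7 in shPkm1, and 686 and 811 in those labelled shPkm2, and Rpl36 of the large subunit had 681 and 464 CPM in shScr, 294 and 381 in shPkm1, and 263 and 300.1 in those labelled shPkm2. Their changes in the shPkm2-labelled libraries were -1.03 (adjusted p 2.5e-05, SE 0.142) and -1.02 (adjusted p 0.000126, SE 0.169), and neither gene overlapped between these libraries and the controls. Rps27a (-0.94) and Rpl35a (-0.83) fell here too, as did Rpl38, a small protein known from mice with altered skeletal patterning, which had 413 and 353 CPM in shScr, 205 and 239 in shPkm1, and 217 and 221 in those labelled shPkm2 and changed by -0.81 (adjusted p 3.25e-05, SE 0.114).

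This count rested on the scale more than the one for shPkm1. With library totals alone 27 members were lower (all genes 21.4%) and 7 were higher (all genes 48.2%), namely Rpl4, Rpl6, Rpl7, Rpl21, Rps2, Rps6 and Rps15a, and the median change of the members was -0.17. Rps27 was lower on either scale. The 2 comparisons share the control libraries, so their calls are not independent. The members with no call in either comparison with shScr were Rpl3, Rpl6, Rpl7, Rpl10, Rpl10a, Rpl21, Rpl29, Rplp0, Rps2, Rps4x, Rps15a and Rpsa. Rpl7, an RNA-binding protein of the large subunit, had 856 and 692 CPM in shScr, 897 and 951 in shPkm1, and 871 and 903 in those labelled shPkm2. Its control libraries were the lowest of the 6, and it was the only tested member above 0 in both comparisons, with log2 fold changes of 0.26 (adjusted p 0.0888, SE 0.124) and 0.20 (adjusted p 0.176, SE 0.124). These became calls of 0.42 and 0.36 without shScr library 1 (adjusted p 0.00183 and 0.00622) and of 0.46 and 0.53 with library totals alone. Rpl3, which lines the peptidyl transferase centre, had 1769 and 1681 CPM in shScr, 1499.7 and 1619.8 in shPkm1, and 1565 and 1634 in those labelled shPkm2, with changes of -0.14 (95% interval -0.40 to 0.11) and -0.11 (-0.36 to 0.15). Rpl10, the counterpart of Rpl10l, had 1554 and 1398 CPM in shScr, 1196 and 1221 in shPkm1, and 1289.5 and 1430.2 in those labelled shPkm2, with changes of -0.29 (adjusted p 0.051, SE 0.12) and -0.12 (adjusted p 0.396, SE 0.12). The former passed the threshold without shScr library 2 (-0.36, adjusted p 0.00627) and with DESeq2 (0.00971). Rpsa, also known as a laminin receptor, had 3304 and 3787 CPM in shScr, 2871 and 3068 in shPkm1, and 3086 and 3216 in those labelled shPkm2, and Rps4x, encoded on the X chromosome, had 1446 and 1168 CPM in shScr, 1081 and 1117 in shPkm1, and 1106 and 1312 in those labelled shPkm2. Their changes were -0.26 and -0.25 in shPkm1 and -0.17 and -0.11 in the shPkm2-labelled libraries, none past the threshold. Rpsa in shPkm1 passed it without shScr library 1 (-0.35, adjusted p 0.0114) or with DESeq2 (0.0243) and Rps4x without shScr library 2 (-0.40, adjusted p 0.00316).

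Of the stalk proteins, which recruit elongation factors to the large subunit, Rplp1 and Rplp2 were lower in both comparisons and Rplp0 in neither. Rplp0, the stalk base, had 2968 and 3194 CPM in shScr, 2761 and 3253 in shPkm1, and 2739 and 2863 in those labelled shPkm2, and the groups lay close together, with changes of -0.04 (-0.32 to 0.25) and -0.14 (-0.43 to 0.15). Rplp1, its partner at the stalk tip, had 1514 and 1275 CPM in shScr, 926 and 1059 in shPkm1, and 746 and 903 in those labelled shPkm2 and changed by -0.49 (adjusted p 0.00702, SE 0.137) and -0.76 (adjusted p 0.000274, SE 0.138). Rplp2 had 719 and 591 CPM in shScr, 482 and 519.8 in shPkm1, and 393 and 527 in those labelled shPkm2 and changed by -0.39 (adjusted p 0.0313, SE 0.144) and -0.51 (adjusted p 0.00664, SE 0.144). The shPkm1 calls of Rplp1 and Rplp2 were lost without shPkm1 library 1 (adjusted p 0.113 and 0.212), that of Rplp2 also without shPkm1 library 2 (0.0903) or shScr library 1 (0.0784), and the call of Rplp2 in the shPkm2-labelled libraries without library 1 of that group (0.129). With library totals alone Rplp1 in shPkm1 was at -0.29 (adjusted p 0.0524), and Rplp2 at -0.19 (0.236) in shPkm1 and -0.18 (0.238) in the shPkm2-labelled libraries, and limma on FPKM ended the same 3 calls (0.104, 0.283 and 0.27). The difference between Rplp0 and its partners was not tested.

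Rpl5 and Rpl11, which with 5S RNA bind the p53 inhibitor Mdm2 when ribosome assembly fails, were both lower in shPkm1. Rpl5 had 953 and 781 CPM in shScr, 639 and 644 in shPkm1, and 715 and 738 in those labelled shPkm2, and Rpl11 had 817 and 765 CPM in shScr, 531 and 617 in shPkm1, and 599 and 633 in those labelled shPkm2. Their changes were -0.43 (adjusted p 0.00658, SE 0.12) and -0.46 (adjusted p 0.00342, SE 0.115) in shPkm1, and -0.25 (adjusted p 0.0753, SE 0.12) and -0.36 (adjusted p 0.0134, SE 0.115) in the shPkm2-labelled libraries. Leaving out shPkm1 library 1 ended both shPkm1 calls (0.0649 and 0.0803) and leaving out shPkm1 library 2 that of Rpl5 (0.0519). Rpl11 in the shPkm2-labelled libraries missed the threshold without either library of that group (0.115 and 0.0517), and Rpl5 passed it without shScr library 2 (0.00205) and with DESeq2 (0.0314). With library totals alone Rpl5 in shPkm1 was at -0.23 (0.0765) and Rpl11 in the shPkm2-labelled libraries at -0.03 (0.794), and Rpl5 in the latter, which was not called, turned to 0.08. Limma on log2(FPKM + 1) ended these calls too (0.0608 and 0.82), and that of Rpl11 in shPkm1 (0.0696).

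Paralogue pairs were read side by side. Rpl22, which binds RNA on the surface of the large subunit, had 511 and 447 CPM in shScr, 226 and 242 in shPkm1, and 286 and 348 in those labelled shPkm2, and its log2 fold changes were -1.03 (adjusted p 8.67e-06, SE 0.121) and -0.60 (adjusted p 0.000631, SE 0.12). Its paralogue Rpl22l1, which the symbol rule leaves out, had 41.4 and 62.5 TPM in shScr, 62.5 and 65.0 in shPkm1, and 52.1 and 50.02 in the shPkm2-labelled libraries. Rpl22l1 did not pass the threshold in shPkm1 (-0.06, adjusted p 0.716) and was lower in the shPkm2-labelled libraries (-0.46, adjusted p 0.0136). In TPM Rpl22 had means of 306, 196 and 277 in shScr, shPkm1 and the shPkm2-labelled libraries, above Rpl22l1 in each.

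Rpl36a on the X chromosome had 390.3 and 383 CPM in shScr, 219 and 228 in shPkm1, and 249 and 265 in those labelled shPkm2, and its paralogue Rpl36al on chromosome 12 had 213 and 179 CPM in shScr, 130.1 and 137 in shPkm1, and 156 and 158 in those labelled shPkm2. Both were lower in shPkm1, at -0.79 (adjusted p 1.45e-05, SE 0.0981) and -0.55 (adjusted p 0.000548, SE 0.106), and in the shPkm2-labelled libraries, at -0.59 (adjusted p 0.000128, SE 0.0977) and -0.31 (adjusted p 0.0174, SE 0.105). The last of these calls was lost without shScr library 1 (-0.18, adjusted p 0.116) or without either library of that group (0.0993 and 0.0778), and its direction turned with library totals alone (0.015). The 2 copies encode almost the same protein, and whether the counting divided reads between them was not tested. Rpl7l1, the nucleolar relative of Rpl7, was lower in both comparisons (-0.40 and -0.55, adjusted p 0.00295 and 0.000201), where Rpl7 had values above 0. Rpl39 on the X chromosome, the counterpart of Rpl39l, had 453 and 421 CPM in shScr, 271 and 276 in shPkm1, and 230.3 and 293 in those labelled shPkm2 and changed by -0.68 (adjusted p 0.000301, SE 0.12) and -0.74 (adjusted p 0.000111, SE 0.12).

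**Figure D3:**
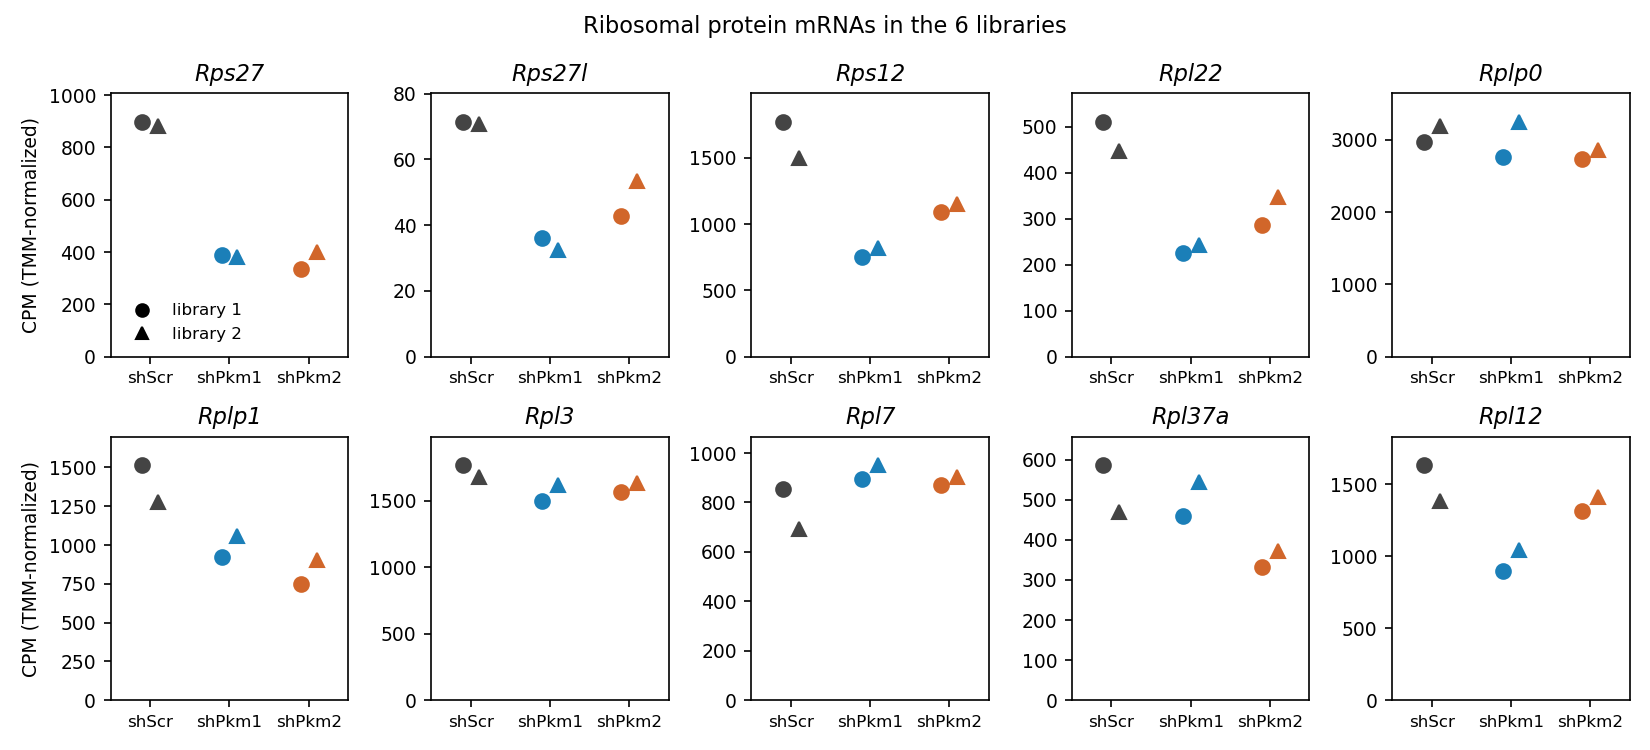
CPM after TMM scaling (vertical axes start at 0) of 10 ribosomal protein genes in each library of the 3 groups; circles are library 1 and triangles library 2. Rps27, Rps12, Rpl22 and Rplp1 lie below both controls in all 4 Pkm hairpin libraries, Rplp0 and Rpl3 show no call, Rpl7 is lowest in the controls, and Rpl37a and Rpl12 separate the Pkm hairpin groups.

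Set directly against each other, the Pkm hairpin groups differed in few ribosomal protein mRNAs. In the shPkm2-labelled libraries, 12 of 78 members (15.4%) were higher than in shPkm1 and 3 (3.85%) were lower, against 25.7% and 27.3% of all genes, and the median log2 fold change was 0.12 against 0.01 for all genes. Rps12 had the largest rise, at 0.51 (adjusted p 0.00359, SE 0.124), from the values given above. Rpl12, a protein of the stalk base, had 1631 and 1380.4 CPM in shScr, 893 and 1043 in shPkm1, and 1311 and 1413 in those labelled shPkm2. Its libraries labelled shPkm2 overlapped with the controls and lay above both shPkm1 libraries, with 0.49 (adjusted p 0.00641, SE 0.131) between the Pkm hairpin groups.

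Rpl7a, also of the large subunit, had 1911 and 1539 CPM in shScr, 1080.4 and 1352 in shPkm1, and 1615 and 1763 in those labelled shPkm2, and a difference of 0.47 (adjusted p 0.0152, SE 0.147). Rps27l at 0.48 (adjusted p 0.00364, SE 0.118), Rpl26 at 0.46 (adjusted p 0.0123, SE 0.138), Rpl22 at 0.44 (adjusted p 0.00783, SE 0.12) and Rpl41 at 0.44 (adjusted p 0.0415, SE 0.168) were higher as well. The 3 lower members were Rpl37a, Rps28 and Rps10. Rpl37a, a zinc-binding protein of the large subunit, had 586 and 469 CPM in shScr, 459.9 and 544 in shPkm1, and 332 and 371 in those labelled shPkm2, and its shPkm1 libraries overlapped with the controls while the shPkm2-labelled libraries lay below all others. It had the largest fall of this contrast among the members, at -0.51 (adjusted p 0.00505, SE 0.131). Of the small subunit, Rps28 had 847 and 588 CPM in shScr, 598 and 622 in shPkm1, and 414 and 485 in those labelled shPkm2, and Rps10 had 1425 and 978 CPM in shScr, 949 and 1011 in shPkm1, and 658 and 800.2 in those labelled shPkm2, with differences of -0.44 (adjusted p 0.0268, SE 0.153) and -0.43 (adjusted p 0.0412, SE 0.163).

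These direct calls rested on few libraries. The number of higher members was 2 without shPkm1 library 1 (all genes 18.3%) or without shPkm2-labelled library 2 (18.7%). It was 32 with library totals alone (33.9%). Leaving out either control library raised this number too, in a fit that redid the filter, the scaling and the estimate of the spread. The number of lower members was 1, 0 and 0 without shPkm1 library 1, shPkm1 library 2 and shPkm2-labelled library 1 (all genes 22.0%, 21.1% and 20.9%), and 7 without either control library (31.5% and 31.4%). Each of the 10 genes named for this contrast lost its call without at least 1 of the libraries: Rps12 without shPkm1 library 1 (adjusted p 0.0648), and Rpl12, Rpl22, Rpl26, Rpl7a and Rpl41 without shPkm1 library 1 or shPkm2-labelled library 2 (0.0681 to 0.339). Rpl41 also lost it without shPkm1 library 2 (0.109). Rps27l lost it without shPkm1 library 2 or shPkm2-labelled library 2 (0.0596 and 0.0947), Rpl37a without shPkm1 library 2 or shPkm2-labelled library 1 (0.09 and 0.0634), and Rps28 and Rps10 without shPkm1 library 1, shPkm1 library 2 or shPkm2-labelled library 1 (0.0915 to 0.274). Rps28 and Rps10 also lost it with library totals alone (0.0695 and 0.0978) and with limma on log2(FPKM + 1) (0.129 and 0.152).

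Rps24, a small subunit protein whose mRNA is alternatively spliced near its end, differed between groups in its transcripts more than in its level. As a gene it had 1243 and 955 CPM in shScr, 892 and 838 in shPkm1, and 949 and 1019 in those labelled shPkm2, with changes of -0.34 (adjusted p 0.0384, SE 0.135) and -0.16 (adjusted p 0.308, SE 0.134). The gene lies on chr14:24490678-24496960 (GRCm38). After the fourth exon, which all 3 curated forms share, the main form joins a 20-base exon at chr14:24495430-24495449, a longer form joins an 18-base exon at chr14:24494052-24494069 before it, and another form skips both exons. The junctions are shown because they are the sequence that tells the forms apart. Each line gives the last 12 bases of the shared exon and the next 24 bases of the transcript on the plus strand (GENCODE vM21), and capitals mark the optional exons.
Rps24 with the 20-base exon: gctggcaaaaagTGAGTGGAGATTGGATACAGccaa
Rps24 with the 18-base and the 20-base exon: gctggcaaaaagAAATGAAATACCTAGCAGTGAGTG
Rps24 without either exon: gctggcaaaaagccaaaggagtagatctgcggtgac
The reading frames of these forms end at different points, after 130, 131 and 133 codons.

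The form without either exon had 562 and 672 estimated counts in shScr, 1436 and 1633 in shPkm1, and 5391 and 5332 in the shPkm2-labelled libraries. The 3 groups did not overlap. It made up 2.87% and 3.98% of the Rps24 counts in shScr, 8.57% and 9.85% in shPkm1, and 26.7% and 24.96% in the shPkm2-labelled libraries. In the edgeR test over 33433 transcripts its log2 fold change was 1.15 in shPkm1 (SE 0.0803, adjusted p 0.00562), 2.82 in the shPkm2-labelled libraries (SE 0.084, adjusted p 0.000614) and 1.67 between them (SE 0.08, adjusted p 0.00227). The shPkm1 call was just missed without shPkm1 library 1 (1.21, adjusted p 0.0555) or library 2 (1.07, adjusted p 0.0526). The main form with the 20-base exon held 78.6% and 82.2% in shScr, 75.5% and 69.9% in shPkm1, and 58.6% and 62.5% in the shPkm2-labelled libraries. Its own log2 fold changes did not pass the threshold, at -0.45 (adjusted p 0.142) and -0.53 (adjusted p 0.0793). The form with both exons held 11.6% and 8.34% in shScr, and 7.10% and 7.25%, then 5.28% and 5.34% in the other groups, again with no call. Only reads that touch these junctions or exons tell the forms apart, and the division of the others was estimated by the authors' counting.

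**Figure D4:**
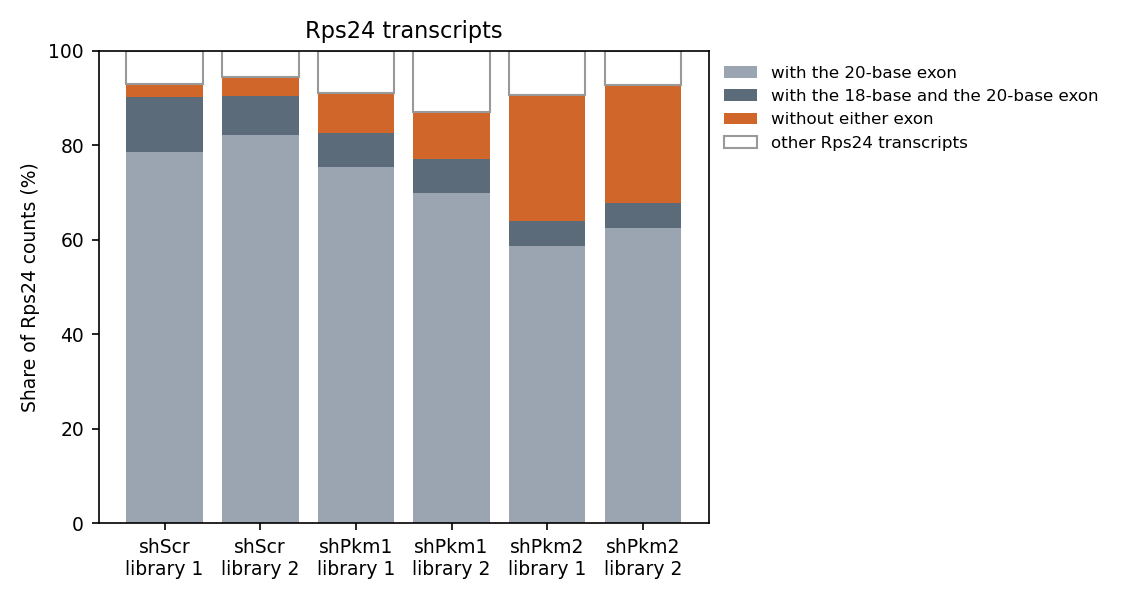
Share of the Rps24 estimated counts (vertical axis, percent) held by each transcript form in the 6 libraries. The form without either short exon goes from at most 3.98% in shScr to 8.57% and 9.85% in shPkm1 and 26.7% and 24.96% in the shPkm2-labelled libraries.

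In all, 14 members had at least 2 transcripts that each held 5% or more of the gene's counts in some group, 31 transcripts together. Of these 31, 2 were higher and 7 lower in shPkm1, and 1 was higher and 8 lower in the shPkm2-labelled libraries, against 10.8% and 17.2% of all transcripts called in either direction. Over all 127 tested transcripts of the members, 31 were called in shPkm1, 25 in the shPkm2-labelled libraries and 2 in the direct comparison (7.91% of all transcripts). Without 1 library the first of these counts was 0 to 24, being 0 without either shPkm1 library, and the second was 2 to 23, being 2 without shPkm2-labelled library 1. Among the 31 transcripts above, the higher ones were the Rps24 form above in both comparisons and a predicted transcript of Rpl10a in shPkm1. That Rpl10a transcript had 654 and 672 estimated counts in shScr, 1159 and 1261 in shPkm1, and 616 and 657 in the shPkm2-labelled libraries, and it held at most 6.64% of the gene's counts. Its log2 fold change in shPkm1 was 0.69 (SE 0.0866, adjusted p 0.0156), and the call was lost without any 1 of the shScr or shPkm1 libraries (0.0527 to 0.106). With the replicate block the Rpl10a transcript also missed the threshold in shPkm1 (0.69, adjusted p 0.0517). In the direct comparison it was lower in the shPkm2-labelled libraries (-1.06, SE 0.0871, adjusted p 0.00649). The other transcripts lay in the direction of their gene or were not called.

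Among the members, short mRNAs were lower by more. Length was taken as the effective length implied by the deposited counts and FPKM of each gene's most counted transcript (libraries with at least 50 counts). It ran from 274 bases (Rps27) to 5078 bases (Rps15a) with a median of 642, against 2814 for the tested genes with a value. Of the 39 members at or under the median 36 were lower in shPkm1 (median change -0.65), and of the 39 longer ones 26 were (median -0.43). In the shPkm2-labelled libraries the numbers were 34 (median -0.57) and 19 (median -0.35). Across the 78 members the log2 of length and the log2 fold change correlated (Pearson's r = 0.39, Spearman's rho = 0.43) in shPkm1 and likewise (0.50 and 0.50) in the shPkm2-labelled libraries. Over all genes with a length the values were 0.17 and 0.22, and 0.16 and 0.24. With GENCODE lengths, which were over 1.5 times the effective length for 14 members, r was 0.39 and 0.45. These correlations are across genes that share the same libraries and are given as a description.

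**Figure D5:**
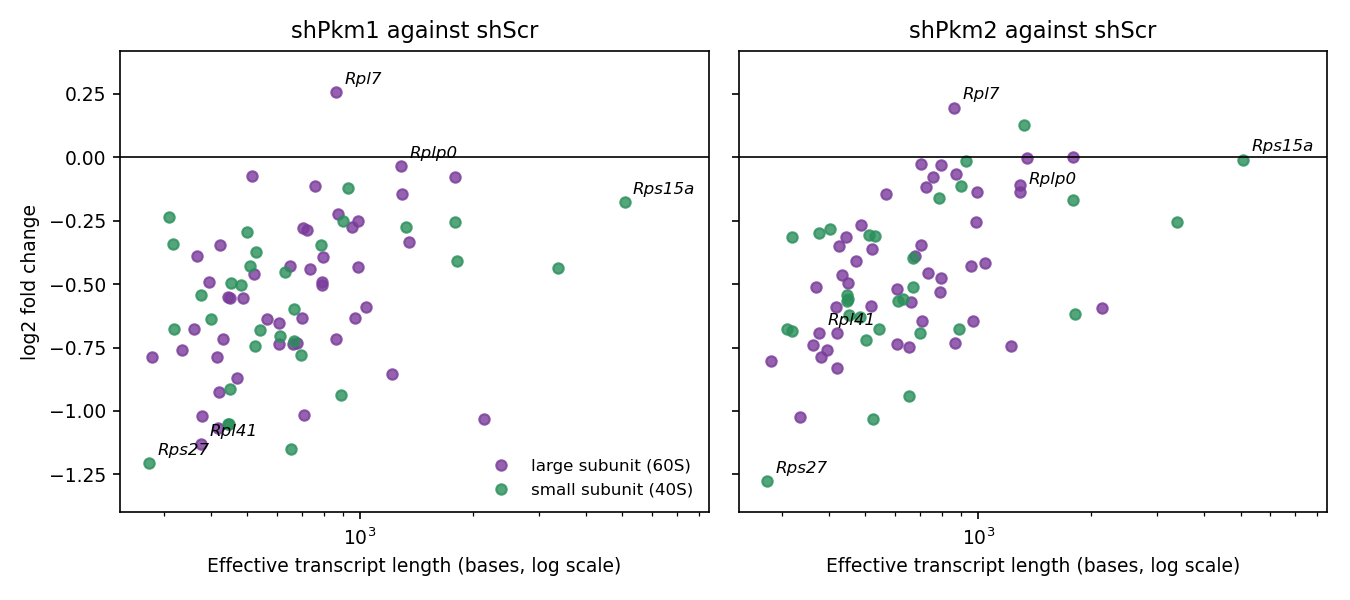
Log2 fold change (vertical axis) of the 78 tested ribosomal protein genes by the effective length of their most counted transcript (horizontal axis, log scale); colours mark the subunit. Rps27, the shortest at 274 bases, lies lowest in both panels, and Rpl7 and Rps15a are among the longer members near or above 0. Other long members lie lower, such as Rpl22 (2136 bases) at -1.03 and -0.60 and Rps3 (1811 bases) at -0.41 and -0.62. Each point is 1 gene and both panels share the control libraries.

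In the direct comparison r was 0.13 and rho 0.08. The pyrimidine run shown above gave similar medians with and without it. In shPkm1 the 23 tested members with a run of at least 8 bases had a median change of -0.51 (20 lower) and the 35 with a shorter run -0.55 (26 lower), and in the shPkm2-labelled libraries the medians were -0.51 (17 lower) and -0.56 (24 lower). Rpl35 with 18 pyrimidines changed by -1.02 and -0.79, Rpl7a with 21 by -0.51 and -0.03, and Rpl41 with 3 by -1.13 and -0.69.

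Fau and Rack1 are ribosomal proteins whose symbols fall outside the rule. Fau, made as a fusion with a relative of ubiquitin, was lower in shPkm1 at -0.53 (adjusted p 0.00323, SE 0.131) and in the shPkm2-labelled libraries at -0.50 (adjusted p 0.00431, SE 0.131). Rack1, a scaffold protein on the small subunit, was lower at -0.53 (adjusted p 0.00273, SE 0.128) and -0.60 (adjusted p 0.00101, SE 0.128). The ribosomal proteins of mitochondria, a separate set of 78 genes, had 56 lower and 2 higher in shPkm1 (median -0.49; all genes 31.4% and 31.8%) and 47 lower and 2 higher in the shPkm2-labelled libraries (median -0.38; all genes 34.2% and 33.9%). Whether the cytosolic and mitochondrial sets differed was not tested.

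The same shares of all genes are the background for the lists that follow. Of the 20 other genes known for a 5' TOP, 10 were lower and 4 higher in shPkm1, and 7 lower and 7 higher in the shPkm2-labelled libraries, the latter near the shares of all genes. The elongation factor Eef2 (-1.03 and -0.77) and Tpt1 (-1.03 and -0.70) were lower, while the nucleolar chaperone Npm1 (0.61 and 1.5) and the intermediate filament gene Vim (0.74 and 1.26) were higher. Between the Pkm hairpin groups 9 of the 20 were higher and 1 lower in the shPkm2-labelled libraries, where 25.7% and 27.3% of all genes were. Of 20 regulators of TOP mRNAs and translation, 10 were lower and 4 higher in shPkm1, and 10 lower and 6 higher in the shPkm2-labelled libraries. Larp1b, a relative of Larp1, was lower (-1.45 and -1.52) and the RNA-binding protein Tia1 higher (1.00 and 1.17). Mtor (-0.61 and -0.54) and its partner Rptor (-0.83 and -0.94) were lower in both. So were some inhibitors in the same pathway, Tsc2 (-0.69 and -0.75), Akt1s1 (-0.42 and -0.64) and Eif4ebp2 (-0.91 and -0.36). Of the other inhibitors, Tsc1 was called only in shPkm1 (-0.37 and -0.04). Eif4ebp1 was called only in the shPkm2-labelled libraries (-0.15 and -1.10). Mlst8 and Rheb of the same list were called in neither, and Eif4e was higher in both (0.29 and 0.56). Larp1 was lower in shPkm1 (-0.45, adjusted p 0.00151) and did not pass the threshold in the shPkm2-labelled libraries (-0.15, adjusted p 0.197), and Myc, which drives transcription of ribosomal protein genes, was higher (0.55 and 0.37). Of 12 genes listed as chaperones and carriers of ribosomal proteins, 5 were lower in shPkm1. Among them were Grwd1, the carrier of Rpl3 (-0.80, adjusted p 0.000176), and Aar2, known as a splicing factor (-0.94, adjusted p 2.65e-06). In the shPkm2-labelled libraries 6 were lower and 1 higher. The 5' TOP and chaperone lists share Nap1l1, and all values are mRNA levels, which say nothing of translation. Of 8 host genes of small nucleolar RNAs in the list only Eif4a2 was in the table, lower in both (-0.60 and -0.75).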

How the data were processed

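Values came from 1 deposited table with 1 row per RefSeq transcript, 57920 in all. Per the file headers, each transcript has TPM, FPKM and an estimated count in each library. Between 49.3% and 52.0% of the deposited estimated counts were not whole. The deposited FPKM and TPM values are per transcript length, TPM with an equal sum in every library. Per the submitters' processing notes the tools included HISAT, StringTie, Bowtie, RSEM and DESeq2, with mm10 as the genome build. Their versions and the strandedness are not given in the sources used here. A further 9 columns of group means were not used.

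Counts and TPM were summed per NCBI gene, and counts were rounded. Symbols matched 17445 of 17558 genes. Gene coordinates came from RefSeq (GRCm38.p6), and exons from GENCODE vM21. Effective length is the count over FPKM and the library total. Gene tests used edgeR 4.0.16 (R 4.3.3): filterByExpr (minimum count 10, minimum total 15), TMM, 1 coefficient per group over all 6 libraries, quasi-likelihood F-tests of 3 contrasts, two-sided, Benjamini-Hochberg over 12643 genes, threshold 0.05. Each standard error is the log2 fold change, unsigned, over the root of F. Transcripts were tested likewise. The steps were tested on simulated counts. Genes named were Pkm, the stalk proteins, Rpsa, paralogue pairs, Rpl5, Rpl11, and per contrast the 6 largest called rises and falls with a mean of at least 50 counts and no overlap, plus members with at least 2 transcripts of 5% or more of the counts (Rps24 singled out after its values were seen). Related lists added up to 2 rises and 2 falls each. The regulators of TOP mRNAs, Rpl35, Rps2, Rps6, Rps15a and Rpl29 were named after their values were seen. Members and lists were chosen with earlier results of these data known.

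Alternatives were DESeq2 size factors, library totals, other filters, DESeq2 1.42.0, only the groups compared, limma 3.58.1 on log2(FPKM + 1) and log2(FPKM + 0.1), the replicate block, and leaving out each library. TMM without the members, the effective length and the alternatives for transcripts were added after the data had been seen.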

Additional observations from a re-analysis of the deposited data

How the results depend on the processing

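The counts depended on the scaling. With library totals alone the median change of the members was -0.35 in shPkm1 and -0.17 in the shPkm2-labelled libraries, with 1 and 7 members higher, and 27 lower in the latter. The direct contrast then had 32 higher and 1 lower. Limma on FPKM gave medians of -0.34, -0.17 and 0.26, 37 and 20 lower and 1 and 6 higher against shScr, and 25 higher and 1 lower in the direct contrast, with either pseudocount. DESeq2 called 1 member higher in shPkm1. Only the groups compared gave 25 higher and 7 lower in the direct contrast. Rpl36al in the shPkm2-labelled libraries turned from -0.31 to 0.015 with library totals and 0.018 with limma on FPKM. Leaving out 1 library moved the counts of lower members to 36 to 70 in shPkm1, 40 to 63 in the shPkm2-labelled libraries and 0 to 7 in the direct contrast, those of higher members to 0 to 1, 0 to 2 and 2 to 25, and the medians to -0.67 to -0.41, -0.60 to -0.35 and 0.03 to 0.19. Called member transcripts, over the 127 tested, numbered 31, 25 and 2 in the 3 contrasts, 0 to 24, 2 to 23 and 1 to 2 without 1 library, and 13 and 8 with library totals in the last 2. Replicate numbers did not pair the libraries (correlations of deviations -0.03, 0.04 and 0.05). With the replicate block 58 and 52 members were lower against shScr, 8 were higher and 2 lower in the direct contrast (Rpl41 and Rps10 at adjusted p 0.0643 and 0.054), and 8 and 10 transcripts were called. The other alternatives kept each count within 1.5 times.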
